A study of Bos taurus with 8 samples.

Results

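The genes described here are 42 genes of mitosis, whose products drive entry into cell division, build the spindle, attach chromosomes to it, hold the cell until attachment is complete, pull the chromosomes apart and split the cell. The members are a list of gene names, matched to the name or accession of each probe, and their measured values played no part in the matching. The array design named a probe for 40 of the 42, and all 40 passed the filter on dim probes, among 12898 genes tested of 16299 gene symbols on the array. CENPA, the histone H3 variant that marks centromeres, and TOP2A, the topoisomerase that untangles sister chromatids, were not analysed here.

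RNA of samples labelled bovine fetal cotyledon was hybridised to 8 arrays of the 1-colour Agilent type, which read the brightness of 60-base probes. The 4 arrays titled non-pregnant fetal cotyledon carry the description of expression before pregnancy, and the 4 titled pregnant fetal cotyledon that of expression after pregnancy. A fetal cotyledon is the fetal side of a ruminant placentome, the site where fetal villi meet the maternal caruncle. All 8 samples are labelled female Bos taurus fetal cotyledon, while the collection protocol, which is the same for every sample, speaks of gravid uteri of pregnant buffalo from a slaughterhouse. How well the cattle probes match buffalo transcripts was not tested. No label says that the 4 replicates of a group came from separate animals, so the p-values reflect the spread among these samples alone, and that spread may be technical. No age or stage of gestation is given.

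The labelled tissue was checked against marker genes before the mitotic genes were read. Signal is given on the log2 scale, as its distance from the 75th percentile of all probes on its array. The summed signal of 9 trophoblast markers lay between 9.01 and 9.63 where the label reads non-pregnant. In the group labelled pregnant it lay between -1.30 and 1.08, and 3 of the 9 were above background on no array. The summed signal of 6 uterine markers went the other way, -0.15 to 1.02 in the group labelled non-pregnant and 6.60 to 7.77 in the other. A fetal cotyledon is rich in trophoblast, so these markers go against the label of the arrays labelled pregnant, and the groups are therefore named only by their labels. Every direction below rests on the sample titles, and whether titles were exchanged was not tested. All 8 arrays were on 1 slide and 1 scan, with the 4 of each group in a slide row of their own, so slide row and group cannot be told apart. Pearson's r over the tested probes was 0.957 to 0.987 between arrays labelled non-pregnant, 0.943 to 0.989 between arrays labelled pregnant and 0.736 to 0.783 across the groups. The share of probes well above background was 63.7% to 69.5% and 60.6% to 66.0% in these groups.

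In a dividing cell, cyclin-dependent kinase 1 with its cyclins starts mitosis, and kinases of the Polo and Aurora families arm the spindle. Kinetochores, protein plates built on each centromere, bind microtubules, and a checkpoint withholds the order to separate until every chromosome is attached. The anaphase-promoting complex (APC/C), a ubiquitin ligase, then marks cyclins and securin for destruction, separase cuts cohesin and the cell divides. Many of these genes are transcribed only late in the cell cycle, and in ruminant placenta some trophoblast cells copy their DNA and divide their nuclei without cell division, forming binucleate cells.

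The probes that read several of these genes are shown because every value below rests on the signal of 60 bases. In each, capitals mark the longest stretch shared with a probe of any other named gene, read as given or as its reverse complement. The array design placed them on the build Btau_3.1. The CDC20 probe lies at chr3:109574830-109574889 on the minus strand, that of UBE2C spans chr13:75364411-75364967 on the plus strand and that of ESPL1 lies at chr5:29676561-29676620 on the minus strand. The SMC4 probe lies at chr1:108849280-108849339, the less bright NUF2 probe spans chr3:6775929-6777143 and the less bright SPC24 probe lies at chr7:14042308-14042367, all on the minus strand. The brighter of the AURKB probes spans chr19:28380791-28381008 and the less bright one lies at chr19:28382133-28382192, on the minus strand. A span over 60 bases (557 for UBE2C, 1215 for NUF2 and 218 for the brighter AURKB probe) crosses an intron, and no exon or UTR annotation of this build was used here.
CDC20: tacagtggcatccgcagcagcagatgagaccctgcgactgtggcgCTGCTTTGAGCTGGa
UBE2C: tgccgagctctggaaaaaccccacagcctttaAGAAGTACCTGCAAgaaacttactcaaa
ESPL1: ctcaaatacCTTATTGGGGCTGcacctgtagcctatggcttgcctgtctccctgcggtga
SMC4: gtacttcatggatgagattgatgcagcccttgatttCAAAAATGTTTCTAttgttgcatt
NUF2, less bright probe: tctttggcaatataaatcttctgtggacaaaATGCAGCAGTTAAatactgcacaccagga
SPC24, less bright probe: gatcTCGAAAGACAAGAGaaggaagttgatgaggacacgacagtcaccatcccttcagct
AURKB, brighter probe: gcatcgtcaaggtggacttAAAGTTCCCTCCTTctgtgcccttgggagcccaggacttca
AURKB, less bright probe: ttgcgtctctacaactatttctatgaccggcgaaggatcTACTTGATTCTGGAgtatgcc

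Across the 90 probes of the members, the longest stretch shared with a probe of another named gene was 18 bases, and among the 40 that represent the genes it was at most 16, with a median of 14. Only exact matches between probes of this array were searched, with the other probe read as given and as its reverse complement. Transcripts and a genome were not searched.

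All 40 tested members were lower on the arrays labelled pregnant by limma with Benjamini-Hochberg adjustment over 12898 genes, and none was higher. Of all genes tested, 63.1% were called in either direction, 33.3% lower and 29.9% higher. The lower calls were 52.7% of all calls, and 65.5% with median scaling or 68.6% with no scaling. The members' median difference, labelled pregnant minus labelled non-pregnant, was -5.11 on the log2 scale, with a range of -7.29 to -0.89, beside -0.03 over all genes tested. The values of the 2 groups did not overlap for any of the 40 members, as for 32.1% of all genes with the labelled pregnant values lower. A difference of -4 or below was found in 26 members and in 3.81% of genes tested, and 39 members were at least 2-fold lower, beside 24.4%. Every member was well above background on all 4 arrays labelled non-pregnant, so all of them passed the filter through that group. On the arrays labelled pregnant, 26 were above background on all 4, 2 on 3, 2 on 2, 5 on 1 and 5 on none. Of all genes tested, 84.4% were above background on all 8 arrays, and 2.6% on all 4 labelled non-pregnant and none labelled pregnant, as these 5 members were. Restricted to the 26 measured on all 8 arrays, all 26 were lower (33% of the 10892 such genes were), 25 at least 2-fold (22.9% of such genes), and their median difference was -4.13.

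**Figure D1:**
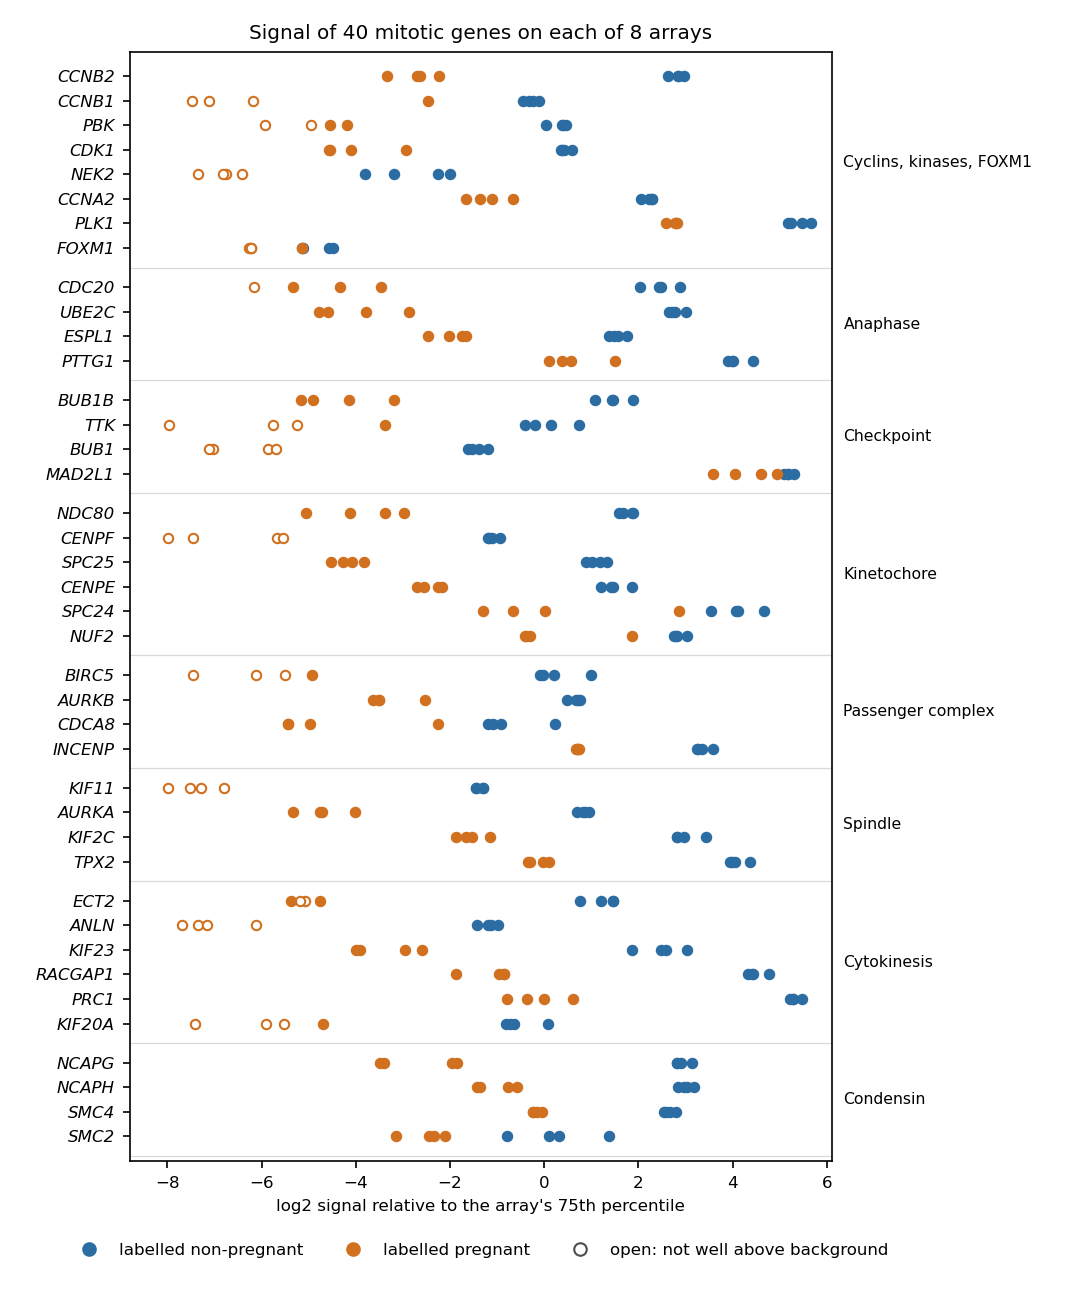
Signal of the 40 members with a probe, as log2 distance from the 75th percentile of the array, on the 4 arrays labelled non-pregnant (blue) and the 4 labelled pregnant (orange), by role. Open points were not well above background, and for every gene all blue points lie to the right of all orange points.

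The markers moved with the same contrast. Of the trophoblast markers, 8 of 8 tested were lower on the arrays labelled pregnant, and of the erythroid markers 6 of 6, their summed signal falling from between 7.43 and 8.33 to between -2.51 and -1.78. The 6 tested uterine markers were all higher, as were 5 of 6 tested leukocyte markers, whose summed signal went from 2.70 to 3.94 up to 3.65 to 5.26. Of the stromal markers, 3 of 6 were higher and none lower, and of 5 endothelial markers 1 was lower and 1 higher. The part of these cell types in the mitotic differences was not tested, and in bulk tissue fewer cells of a type and less RNA per cell cannot be told apart.

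The cyclins, mitotic kinases and FOXM1 fell with a median difference of -4.25 over 8 members. CCNB2 encodes cyclin B2, a partner of CDK1, and read 2.96, 2.63, 2.83 and 2.84 on arrays 1 to 4 labelled non-pregnant and -2.63, -2.69, -2.23 and -3.35 on arrays 1 to 4 labelled pregnant, the order kept for every gene below. The groups lay far apart and each was tight, a difference of -5.54 (SE 0.25, 46.5-fold, limma adjusted p = 4.39e-07). CCNB1, cyclin B1, read -0.10, -0.33, -0.23 and -0.45 on the former and -7.48, -7.12, -6.18 and -2.47 on the latter. Its array 4 labelled pregnant stood well above the other 3 of the group and was the only array of that group on which the gene was above background. The CCNB1 difference was -5.54 (SE 0.96, limma adjusted p = 0.000941). Without array 4 labelled pregnant no array of that group was above background, and CCNB1 was at least 60.1-fold lower there, beside the fitted 46.4-fold with all 4 arrays. That figure leaves out the only array of the group that detected the gene. Over the alternatives run, the CCNB1 difference ranged from -6.65 to -3.03.

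FOXM1, a transcription factor of late cell-cycle genes, was dim everywhere, at -5.14, -5.13, -4.57 and -4.49 in the group labelled non-pregnant against -6.26, -6.23, -6.22 and -5.15 in the group labelled pregnant, where it was above background on 1 array. Its highest labelled pregnant array, array 4, came close to the lowest of the other group without reaching it. The FOXM1 difference of -1.13 (SE 0.30, limma adjusted p = 0.0102) turned to 0.05 with normexp background correction (adjusted p = 0.81), and its adjusted p ranged from 0.000824 to 0.81 over the alternatives run. The differences of the other 5 members of this role ran from -5.23 to -2.65. PLK1, the Polo-like kinase, went from between 5.17 and 5.66 to between 2.59 and 2.82, with little spread in either group (difference -2.65, SE 0.18). CDK1, the kinase that drives entry into mitosis, went from between 0.35 and 0.60 to between -4.57 and -2.94 (difference -4.48, SE 0.35), with array 4 the highest of the lower group. CCNA2, cyclin A2, differed by -3.40 (SE 0.23) and PBK, a mitotic kinase, by -5.23 (SE 0.35). NEK2, a centrosomal kinase, was above background on no array labelled pregnant and was at least 11.7-fold lower there (means -2.81 and -6.84). For such genes, here and below, the bound sets the higher group's mean against the lowest signal that counted as above background on each array of the other, or the gene's own signal there where that was higher. These bounds, and that of CCNB1 above, hold on the scale of the scanner's own background subtraction. Some probes brighter than that lowest signal were still not above background, as PBK at -4.96 on array 2 labelled pregnant. The lowest signal is therefore no strict limit of detection, and "at least" holds relative to it alone. With normexp background correction, which adds 50 to every signal, NEK2 was 2.63-fold lower.

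The 4 genes of anaphase entry had a median difference of -5.16. CDC20, the activator that directs the APC/C to its substrates, had the largest difference of all 40 members. It read 2.88, 2.03, 2.48 and 2.45 against -5.34, -4.34, -3.47 and -6.16, the last of which was not above background. The CDC20 difference was -7.29 (SE 0.52, limma adjusted p = 4.95e-06), a fitted fold of 156. UBE2C, the ubiquitin-conjugating enzyme that works with the APC/C, read 3.01, 2.72, 2.77 and 2.66 against -4.59, -3.79, -2.87 and -4.79, above background on all 8 arrays. Its difference of -6.80 (SE 0.40, 111-fold, limma adjusted p = 1.64e-06) was the largest among the members measured on every array. PTTG1, securin, which holds separase in check, read 4.42, 3.98, 4.01 and 3.90 against 0.11, 0.39, 0.58 and 1.50, with a difference of -3.43 (SE 0.31, limma adjusted p = 1.68e-05). ESPL1, separase itself, went from between 1.38 and 1.75 to between -2.46 and -1.65, a difference of -3.51 (SE 0.22) close to that of its inhibitor.

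The 4 checkpoint genes had a median difference of -5.33 and the widest range, from -5.82 to -0.89. BUB1B, which encodes BUBR1, a part of the inhibitor that binds CDC20, read 1.46, 1.09, 1.45 and 1.88 against -4.91, -4.15, -3.18 and -5.15, a difference of -5.82 (SE 0.42, 56.3-fold, limma adjusted p = 4.86e-06). TTK, the kinase MPS1 that starts checkpoint signalling, read -0.40, -0.19, 0.14 and 0.73 against -5.75, -5.25, -3.39 and -7.97, a range of over 4 on the log2 scale within the group labelled pregnant, where it was above background on array 3 alone. The TTK difference was -5.66 (SE 0.82, 50.6-fold, limma adjusted p = 0.000316). Without array 3 no array of the group was above background and TTK was at least 64.3-fold lower, and without array 4, with 1 of 3 arrays above background, the fitted difference was -4.87. Over the alternatives run, the TTK difference ranged from -6.39 to -3.50. BUB1, a kinase that recruits other checkpoint proteins, was above background on none of those 4 arrays and at least 28.3-fold lower (means -1.43 and -6.43), or 5.29-fold with normexp. MAD2L1, the MAD2 protein that binds CDC20 at unattached kinetochores, was the member that changed least. Its signal was 5.08, 5.18, 5.18 and 5.30 against 4.94, 3.58, 4.05 and 4.60, so that array 1 of the latter lay just under the lowest of the former. The MAD2L1 difference of -0.89 (SE 0.29, 1.86-fold, limma adjusted p = 0.0234) lost its call under other scalings (adjusted p = 0.385 with quantile normalization, 0.0601 with the percentile computed from always-detected probes) and without array 2 labelled non-pregnant (0.0513) or array 2 or 3 labelled pregnant (0.0549 and 0.0652). Over all its alternatives the adjusted p ran from 0.00371 to 0.385, and its less bright probe gave -1.28 (SE 0.31).

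The outer kinetochore genes had a median difference of -4.59 over 6 members. NDC80, NUF2, SPC24 and SPC25 encode the 4 subunits of the NDC80 complex, the main microtubule coupler of the kinetochore. NDC80 read 1.67, 1.59, 1.86 and 1.89 against -4.12, -3.38, -2.98 and -5.06, with a difference of -5.64 (SE 0.41, 49.8-fold, limma adjusted p = 5.17e-06). NUF2 read 2.76, 2.79, 3.04 and 2.83 against -0.41, -0.39, -0.30 and 1.86, and 3 of its 4 labelled pregnant values were nearly equal while array 4 stood about 2 units higher (difference -2.66, SE 0.49, 6.34-fold, limma adjusted p = 0.00126). SPC25 went from between 0.89 and 1.34 to between -4.52 and -3.82 (difference -5.28, SE 0.21). SPC24 read 4.66, 4.12, 4.07 and 3.55 against -1.29, -0.65, 0.01 and 2.86, again with array 4 of the group far above the rest (difference -3.87, SE 0.79, limma adjusted p = 0.00243). CENPF, a large protein of the outer kinetochore, read -1.10, -1.17, -1.20 and -0.93 against -7.45, -5.66, -5.54 and -7.99, none of the last 4 above background. It was at least 31.6-fold lower (limma adjusted p = 2.72e-05), or 6.73-fold with normexp. CENPE, the kinesin that carries chromosomes to the spindle equator, went from between 1.20 and 1.86 to between -2.69 and -2.16 (difference -3.90, SE 0.21).

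The chromosomal passenger complex pairs the kinase AURKB with INCENP, BIRC5 and CDCA8 and corrects faulty attachments. BIRC5, survivin, read -0.01, 0.21, -0.08 and 0.98 against -6.11, -5.49, -4.92 and -7.46, and was above background on 1 array labelled pregnant (difference -6.27, SE 0.51, limma adjusted p = 1.05e-05). AURKB, at the probe with the longer span printed above, read 0.68, 0.48, 0.75 and 0.72 against -3.62, -3.50, -3.51 and -2.53, a difference of -3.95 (SE 0.26, 15.4-fold, limma adjusted p = 3.35e-06). INCENP, the scaffold of the complex, read 3.36, 3.27, 3.24 and 3.57 against 0.67, 0.72, 0.74 and 0.71. Its 4 labelled pregnant values were the closest to each other of any member (SD 0.03), and the difference was -2.65 (SE 0.16, 6.28-fold, limma adjusted p = 2.13e-06). CDCA8, borealin, read -1.10, -1.19, -0.91 and 0.22 against -4.96, -5.45, -2.26 and -5.44, so that array 3 of the lower group stood above the rest of its group (difference -3.78, SE 0.70, limma adjusted p = 0.00137). With the authors' deposited log2 values the CDCA8 difference was -2.85 (SE 1.31, adjusted p = 0.0853), which ended its call, and its adjusted p was at most 0.0853 over the alternatives. Whether the subunits' differences are unequal was not tested, and other probes of AURKB (-5.30) and INCENP (-2.39) gave other sizes.

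Among the spindle genes the median difference was -5.05. KIF11, the kinesin that pushes spindle poles apart, read -1.30, -1.44, -1.31 and -1.44 against -7.52, -7.28, -6.79 and -7.97. None of the latter was above background, which left a bound of at least 33.9-fold lower (limma adjusted p = 3.39e-07), or 6.15-fold with normexp. AURKA, the kinase of the spindle poles, read 0.86, 0.70, 0.82 and 0.95 against -4.76, -4.72, -4.01 and -5.33, a difference of -5.54 (SE 0.27, 46.5-fold, limma adjusted p = 7.11e-07). TPX2, its activator, read 4.37, 3.98, 4.06 and 3.95 against -0.30, 0.10, -0.02 and -0.34, a smaller difference of -4.23 (SE 0.19, 18.8-fold, limma adjusted p = 4.4e-07). KIF2C, a kinesin that takes microtubules apart at kinetochores, went from between 2.82 and 3.43 to between -1.87 and -1.15 (difference -4.56, SE 0.23).

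Genes of the midzone and of cytokinesis had the lowest median of the role groups, -5.74 over 6 members, and the narrowest range, from -6.32 to -5.36. ECT2, the exchange factor that activates RhoA at the division plane, read 1.20, 1.46, 0.77 and 1.46 against -5.07, -5.19, -4.75 and -5.37, above background on 2 of the last 4 arrays (difference -6.32, SE 0.23, limma adjusted p = 1.59e-07). ANLN, anillin, the scaffold of the contractile ring, read -1.12, -0.98, -1.42 and -1.19 against -7.35, -7.16, -6.11 and -7.69. It was above background on none of those arrays and at least 35.5-fold lower (limma adjusted p = 1.25e-06), or 7.01-fold with normexp. KIF20A, a kinesin of the midzone, read -0.63, -0.81, -0.73 and 0.07 against -7.42, -5.53, -4.69 and -5.91 (difference -5.36, SE 0.52, limma adjusted p = 2.86e-05), with only array 3 labelled pregnant above background. KIF23 and RACGAP1, which together form the centralspindlin complex, had near-equal differences of -5.85 (SE 0.38) and -5.62 (SE 0.26). PRC1, which bundles antiparallel microtubules in the midzone, went from between 5.21 and 5.47 to between -0.80 and 0.61 (difference -5.45, SE 0.29).

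The condensin genes, whose products fold chromosomes for segregation, had the smallest median among the role groups, -3.43 over 4 members. NCAPG read 3.14, 2.90, 2.83 and 2.81 against -3.49, -1.96, -1.85 and -3.41, a difference of -5.59 (SE 0.40, 48.3-fold, limma adjusted p = 4.96e-06). NCAPH read 3.18, 2.96, 3.02 and 2.85 against -1.42, -0.76, -0.58 and -1.37, a difference of -4.04 (SE 0.24, 16.4-fold, limma adjusted p = 1.76e-06). On both, arrays 2 and 3 labelled pregnant lay above arrays 1 and 4. SMC2, one of the ATPases of the complex, read 1.37, 0.31, 0.09 and -0.79 against -2.34, -2.10, -2.45 and -3.14, with the widest spread of any member among the arrays labelled non-pregnant (difference -2.75, SE 0.44, limma adjusted p = 0.000552). SMC4, its partner ATPase, differed by -2.82 (SE 0.16), from between 2.54 and 2.81 to between -0.24 and -0.05. The SMC subunits serve both condensin I and condensin II, while NCAPG and NCAPH belong to condensin I alone.

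Within the group labelled pregnant the members were spread unevenly over the arrays. Their median signal was -4.06, -3.44, -2.73 and -3.38 on arrays 1 to 4, beside 0.28 to 0.31 for all genes tested, and 1.51, 1.46, 1.67 and 1.81 on the arrays labelled non-pregnant. Array 3 labelled pregnant was the highest of its group for 22 of 40 members and the lowest for none, and 33 members were above background there, beside 27 to 30 on the other 3. On array 3, 13 members lay more than 1 above the mean of the other 3 arrays, as did 2.28% of all genes tested. These counts are descriptions with no test, and dim values near background vary more than bright ones. Among the 26 members above background on all 8 arrays, 6 lay more than 1 above on array 3 (23.08%). The share among all genes above background on all 8 arrays is not given here.

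Array 4 labelled pregnant departed from its group in both directions. On it 7 members lay more than 1 above the mean of the other 3 arrays (10.5% of all genes did) and 9 more than 1 below (10.1%). Those above were CCNB1 by 4.46, SPC24 by 3.50, NUF2 by 2.23, CDK1 by 1.47, PTTG1 by 1.15, FOXM1 by 1.09 and AURKB by 1.02. Those below were TTK, BIRC5, CENPF, CDC20, NDC80, PBK, CDCA8, BUB1B and UBE2C, the first by 3.18. All 7 of the former were above background on array 4, whereas 5 of the latter, TTK, BIRC5, CENPF, CDC20 and PBK, were not. Among the 26 members above background on all 8 arrays, 5 lay more than 1 above (19.23%) and 3 more than 1 below (11.54%). The shares of 10.5% and 10.1% are over all genes tested, dim ones included. Those among genes above background on all 8 arrays are not given here. A less bright tested probe existed for 4 of the 7 above, and on all 4 it too lay more than 1 above, by 4.07 for CCNB1, 4.06 for SPC24, 1.59 for NUF2 and 2.53 for AURKB. The CCNB1 probes share 22 bases and are not separate readings, whereas the second probes of SPC24, NUF2 and AURKB are those printed above. Only the second probe of SPC24 was above background on all 4 arrays labelled pregnant. That of NUF2 was so on 2 and those of CCNB1 and AURKB on 1, so their sizes are measured from signals near background. Of the 9 below, 5 had a second probe and on 2, BUB1B and CENPF, it was also more than 1 below. The second probes of CENPF, CDCA8, NDC80 and CDC20 were above background on no array labelled pregnant. They cannot show whether the lower signal on array 4 repeats. Subunits of the NDC80 complex moved apart on this array, NUF2 and SPC24 up, SPC25 by less than 1 and NDC80 down by 1.57.

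**Figure D2:**
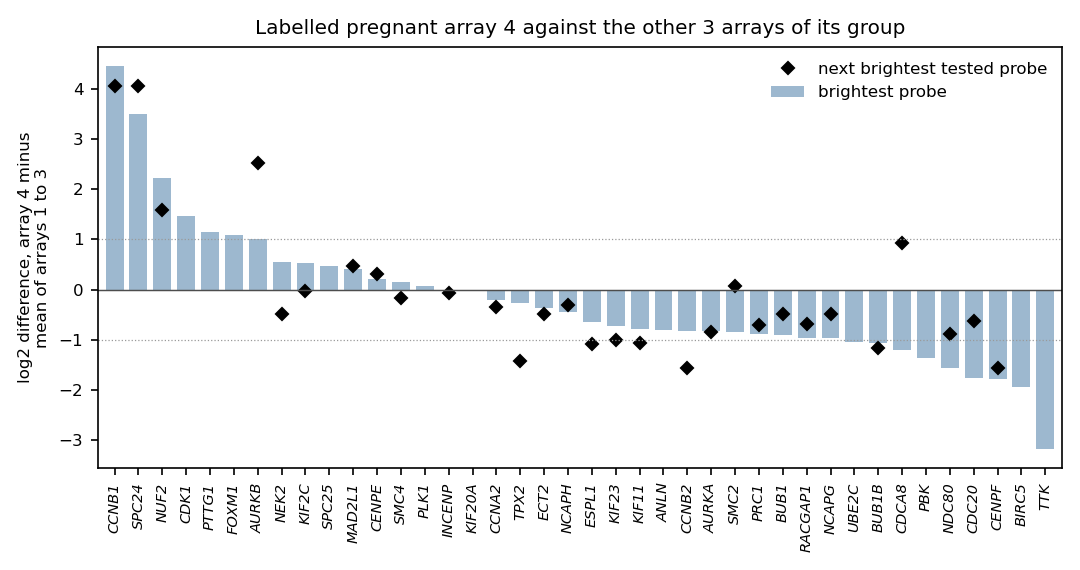
Each member's log2 signal on array 4 labelled pregnant minus the mean of the other 3 arrays of the group, for the brightest probe (bars) and the next brightest tested probe where there is one (diamonds). Dotted lines mark 1 and -1, and CCNB1, SPC24, NUF2 and AURKB lie above 1 with both probes.

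No tested probe of a member turned the direction of its difference. Of the 82 tested probes of the members, 81 were called lower, with p-values adjusted over all 34627 probes tested. The exception was a dim INCENP probe at -1.19 (SE 0.47, limma adjusted p = 0.0556). Many of the 82, such as every tested probe of NEK2, KIF11, CENPF and BUB1, were above background on no array labelled pregnant. These passed the filter through the other group alone, so a lower call was close to fixed for them. The share of all tested probes called lower is not given here. Probes of ECT2, AURKB and PTTG1 above background on no array were not tested. In the 29 members with several tested probes the differences of a gene's probes spread by a median of 0.79, and by more than 2 in 6, namely ECT2 (3.05), PRC1 (2.89), CDC20 (2.71), BUB1B (2.37), KIF11 (2.29) and NCAPG (2.07). Each of these 6 has a probe above background on no array labelled pregnant, whose difference ends at background, so the spread is not a measured difference between probes. The brightest probe gave the largest difference in 15 of the 29. The other probes of CDC20 gave -5.88 (SE 0.46) and -4.58 (SE 0.47), both above background on no array labelled pregnant. RACGAP1 went the other way, its less bright probe giving -7.33 (SE 0.36) beside -5.62, also above background on no array labelled pregnant. In 24 of 28 members whose probes have an order along the gene, the brightest was the last on the transcript's strand. The RNA was copied from an oligo-dT primer, which starts at that end, and the part of this in the order was not tested.

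**Figure D3:**
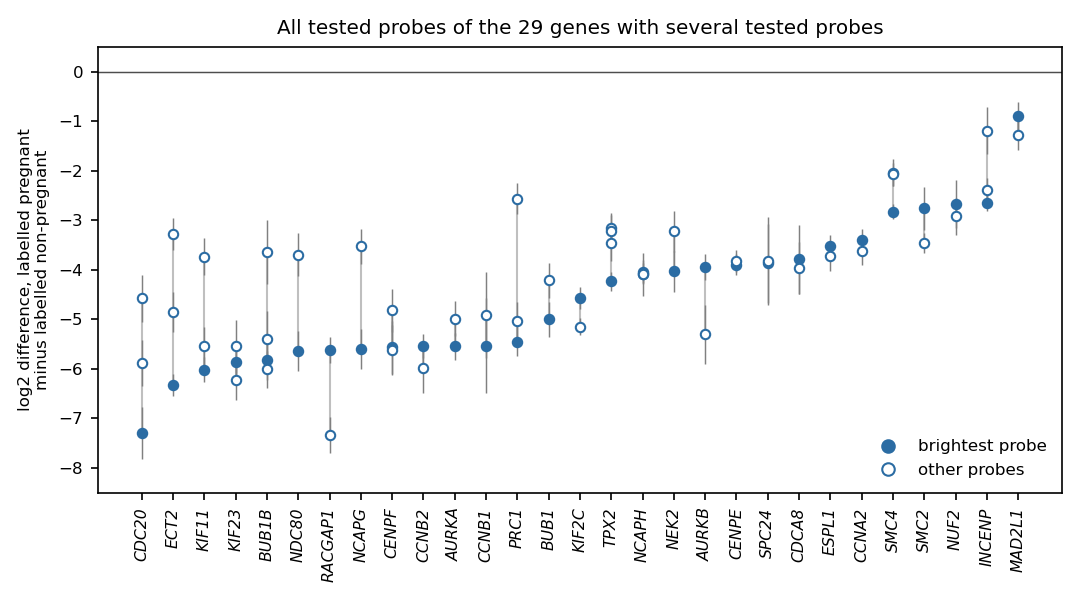
Log2 difference, labelled pregnant minus labelled non-pregnant, with its standard error, for every tested probe of the 29 members with several tested probes. Filled points are the brightest probe of each gene, and all points lie below 0.

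Other cell-cycle genes were read next, in lists chosen, like the members, with earlier results of these data known. Beside the counts below, 33.3% of all genes tested were lower and 29.9% higher. Of 45 tested genes of mitosis and the centromere that are not among the 42, all 45 were lower, with a median of -3.15. These 45 were listed by name, and the phase in which each is transcribed was not measured here. Of them, 6 were above background on no array labelled pregnant and passed the filter through the other group alone. With probes required above background on all 8 arrays, 31 were tested and all 31 were lower (median -3.13). The largest were CDCA3, a trigger of mitotic entry (-6.43, SE 0.56), and DLGAP5, a spindle protein (-6.32, SE 0.44). Of 11 genes of DNA synthesis, 10 were lower and none higher, with a median of -1.95, led by RRM2, a subunit of ribonucleotide reductase (-6.77, SE 0.66), and GINS2, a part of the replicative helicase (-4.79, SE 0.35). MCM3, a helicase subunit, missed the threshold at -1.02 (SE 0.41, limma adjusted p = 0.054) and was called under 3 of 6 scalings. Here and below, these 6 scalings include normexp background correction. Among 14 genes of the MuvB, DREAM and E2F regulators of the cell cycle, 9 were lower and 1 was higher, with a median of -1.45. Of the 14, E2F3 was above background on no array labelled pregnant and passed the filter through the other group alone. With probes required above background on all 8 arrays, 11 were tested, 7 lower and 1 higher (median -1.33). LIN54, a DNA-binding MuvB subunit read by a single probe, differed by -6.24 (SE 0.35) and E2F1 by -5.38 (SE 0.40), while the pocket protein RBL2 was higher by 1.07 (SE 0.21), called under 5 of 6 scalings. E2F4 at 0.06 (SE 0.22) and E2F8 at 3.99-fold lower (limma adjusted p = 0.0727, called under 3 of 6 scalings) did not pass.

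Machinery that the members act on or work with had smaller median differences. A list of 14 APC/C genes held core subunits and the activator FZR1. Of these 14, 6 were lower, FZR1 among them, 2 higher and 6 not called, where 33.3% of all genes were lower and 29.9% higher. The list's median was -0.28, beside -7.29 for the APC/C activator CDC20 and -6.80 for UBE2C. With median scaling 8 were lower and none higher (median -0.67), and with no scaling 9 and none (median -0.77). FZR1, the other activator of the complex, differed by -2.09 (SE 0.23) and ANAPC13 by -1.26 (SE 0.25). CDC26 at 0.89 (SE 0.26) and ANAPC4 at 0.56 (SE 0.17) were higher, calls that held under 4 of 6 scalings, while ANAPC11 at -0.38 (SE 0.22), whose sign turned with the scaling, and ANAPC15 at -0.19 (SE 0.24) did not pass. Of 9 cohesin genes, whose ring separase cuts, 2 were lower, PDS5B (-1.59, SE 0.31) and WAPL (-1.51, SE 0.19), and 3 higher, among them STAG1 (1.92, SE 0.19) and NIPBL (0.74, SE 0.17, called under 4 of 6 scalings), with a median of -0.09. The balance turned with the scaling, to 4 lower and 1 higher with median scaling (median -0.48), 3 and 1 with no scaling (median -0.58) and 3 and 3 with quantile normalization (median 0.21). The cohesin subunit RAD21, which separase cleaves, at -0.22 (SE 0.17) and the loader subunit MAU2 at -0.30 (SE 0.25) did not pass and turned sign with the scaling.

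Of 11 further kinetochore and checkpoint genes, 7 were lower and none higher, with a median of -1.18. Centromere genes fall in both this list and the one of 45 above, so these medians do not compare separate classes. Of the 11, MAD2L1BP was above background on no array labelled pregnant and passed the filter through the other group alone. With probes required above background on all 8 arrays, 10 were tested and 6 were lower (median -1.12). KNTC1, a subunit of the complex that brings dynein to kinetochores, differed by -4.64 (SE 0.28) and CENPT, which links NDC80 to the centromere, by -2.40 (SE 0.19). CENPC at 0.05 (SE 0.16) and NSL1 at 0.00 (SE 0.23) did not pass, and their sign turned with the scaling. Of 9 genes of the gamma-tubulin ring and centrosome, 1 was lower, CKAP5, a microtubule polymerase (-0.82, SE 0.18, called under 5 of 6 scalings), and 1 higher, TUBGCP2, a ring subunit (0.54, SE 0.19, called under 4 of 6 scalings). CLASP1 at 0.50 (SE 0.20) and NEDD1 at -0.09 (SE 0.22, sign turned with the scaling) did not pass, and the list's median was 0.00. The members' difference from these lists was not tested.

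**Figure D4:**
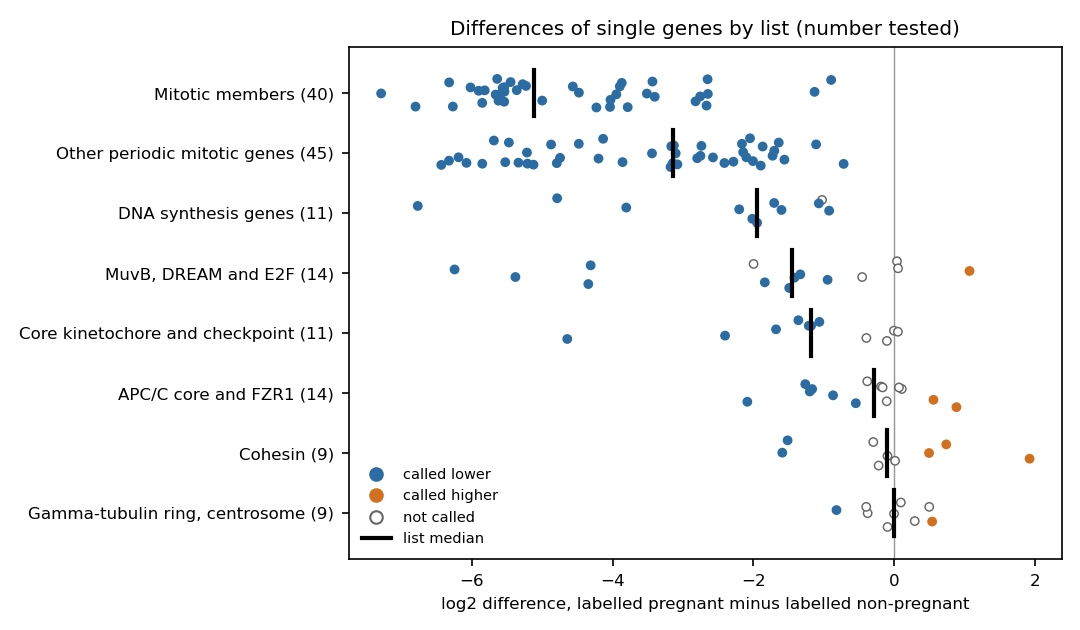
Log2 difference, labelled pregnant minus labelled non-pregnant, of each tested member and of each tested gene of 7 related lists, with the number tested in brackets. Black lines are medians, which run from -5.11 for the members to 0.00 for the gamma-tubulin ring and centrosome.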

How the data were processed

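The deposited scanner files hold Cy3 intensity per spot, background-subtracted by the authors with Agilent Feature Extraction 11.5.1.1 (protocol GE1_1105_Oct12), per the file headers, and flags for spots above background or outlying. A deposited table by the authors holds log2 values of the same arrays. Its scale was checked against the intensities (r at least 0.999). Its 75th percentiles lay at 0.00 and its column medians between -4.21 and -3.56, and it served as an alternative. Control and outlier spots were left out. Spots of a probe were averaged, and log2 intensity was expressed relative to each array's 75th percentile. RefSeq tables gave 34621 of 51282 probes a symbol, by accession or name, leaving out bare LOC numbers. A probe was tested when well above background (at least 0.5 of its spots) on at least 4 of 8 arrays, and the brightest tested probe stood for its gene. The test was limma 3.58.1 (lmFit, eBayes, R 4.3.3), 4 arrays against 4, Benjamini-Hochberg over 12898 genes, threshold 0.05. The script was tested on simulated data. The number of arrays limits the precision.

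The members and lists were chosen with earlier results of these data known. Full values were given, in each of 8 role groups, for the 2 members with the largest difference and the 1 with the smallest, and for the related lists for the 2 largest called in each direction and, in short lists, up to 2 not called, in alphabetical order. SPC24 and CDCA8 were chosen for full values after their values were seen. Alternatives changed the background correction, scaling, filter, probe choice, replicates and replicate block. Promoters and proteins were not analysed here.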

Additional observations from a re-analysis of the deposited data

Results flagged for a closer look

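Groups of 4 arrays, 50 in all, were checked for the 24 members that the rule above chose and for the median over the members. In 3 of the 50, 1 array stood apart from the other 3 beyond Dixon's 95% critical value. By chance about 1 in 20 groups is flagged. All 3 concern array 4 labelled pregnant. NUF2 read 1.86 there and -0.41 to -0.30 on the other 3 arrays of the group. AURKB read -2.53 there and -3.62 to -3.50 on the others. FOXM1 read -5.15 there and -6.26 to -6.22 on the others, near background. In each case the array lay nearer to the group labelled non-pregnant, and the cause was not tested.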

How the results depend on the processing

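Of the 40 members, 39 or 40 were lower and none was higher under the 18 alternatives that tested all 40, and the members that missed the threshold were MAD2L1 (5 alternatives), FOXM1 (normexp) and CDCA8 (the authors' deposited log2 values, -2.85). With probes required above background on all 8 arrays, only 26 members were tested, and all 26 were lower (median -4.13). With normexp background correction the median was -3.39 and FOXM1 was at 0.0521, and the cause was not tested. Leaving out 1 array at a time gave medians from -5.14 to -4.86. Without arrays 3 labelled non-pregnant and 4 labelled pregnant, an alternative chosen after seeing the data, it was -4.81. With the replicate number as a block the median was -5.11 and all 40 stayed lower. Deviations of same-numbered arrays correlated at 0.009 to 0.1546, and those of differently numbered arrays at -0.113 to 0.0485. Whether the numbers pair the arrays was not tested. Over all genes, the block left 4124 lower and 3759 higher, beside 4290 and 3854. Scaling moved the median of all genes from -0.03 to -0.42 (median scaling) and -0.52 (no scaling), and to 0.13 with the percentile over detected probes, and the share of calls that were lower from 52.7% to 65.5%, 68.6% and 46.5%. With no filter, which tests 16299 genes, the median was 0.21 and the share 45.3%. Signals near background on at least 1 array labelled pregnant limit the size of 14 members' differences.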
